A study of Mus musculus with 43 samples.

Results

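The 32 glycolysis genes described here were a chosen list that follows glucose from its uptake to lactate, with the enzymes that set the pace of the route. Members were found by gene symbol, current or older, in the annotation of the Affymetrix MOE430 v.2 array, and each gene was read from its brightest probe set annotated to that gene alone. Of the 32, 29 had such a probe set, among 18185 genes in all. Gpi1, Pfkfb1 and Eno1 had none. Gapdh was read from the array's own control probe sets for that gene.

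Glycolysis splits glucose into pyruvate in the cytosol and yields ATP without oxygen. Hexokinase traps glucose in the cell, phosphofructokinase commits it to the route, and pyruvate is then reduced to lactate or passed to mitochondria, a branch that the pyruvate dehydrogenase kinases close. Most steps have several isoforms with their own tissue patterns. In the gonad, oocytes are known to use glucose poorly and to depend on pyruvate from the surrounding granulosa cells, and Sertoli cells are known to supply lactate to germ cells.

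The series held 43 arrays of whole mouse gonads without adjoining tissue, 1 mouse each, in 15 groups of 3 arrays, with 2 arrays in both E15 groups. Foxl2-/- ovaries (null for the forkhead factor Foxl2) were taken at E13, E16 and P0 (birth). They were compared with ovaries labelled Foxl2+/- at E13, which the study's methods call wild-type littermates, and with wild-type ovaries at E16 and P0. Foxl2+/- heterozygous ovaries were taken at E16. Wnt4-null ovaries (lacking the secreted signal Wnt4) came at E15, with Wnt4+/- controls, and at P0, where they also carried Foxl2+/-. KitWvWv ovaries, homozygous for a hypomorphic allele of the Kit receptor that germ cells need, were taken at P0 and carried Foxl2+/- too. Wnt4-/-Foxl2-/- and KitWvWv Foxl2-/- double mutants at P0 were set against those single mutants, so that both groups of each pair share the Wnt4 or Kit defect. Testes were taken at E13 and at P0, and the methods state that the P0 testes came from Wnt4-null mice with partly defective testis differentiation. The methods give a mixed C57BL/6J, NIH-Swiss/BC and CD1 background for all ovaries but those of E15, which had another strain mixture, so the E15 arrays differ from the rest in strain as well as age.

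Signals are given as multiples of the mean of all probe sets, to which the deposited values had been scaled. Differences are in log2 units after adding 1% of that mean, and ± marks their standard error. The words rose and fell are kept for genes with an adjusted p under 0.05 in limma, corrected across all 45010 probe sets. Signals of different probe sets cannot be ranked against each other, so levels are compared between groups and not between genes. In whole gonads, fewer cells of one type and less RNA in each cell cannot be told apart.

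The targeted genes followed the labels. Foxl2 signal was 5.31 to 10.1 in E13 controls and 0.606 to 1.23 in Foxl2-/- ovaries of that age, and no null array reached the level of its control at any age. Wnt4 signal was 1.01 to 1.31 in E15 controls against 0.358 to 0.414 in Wnt4-null ovaries, and 0.581 to 0.745 in P0 ovaries against 0.2 to 0.306. Replicates of a group correlated at r = 0.9222 to 0.9819 over all probe sets. Over the 29 members, the first P0 wild-type array stood apart from its group. Its median deviation from the group means was 0.25, and Ldha read 14.7 there against 6.45 and 7.14. The second P0 Foxl2-/- array deviated by 0.23, and the third KitWvWv Foxl2-/- array by -0.19. Results that change without one of these arrays are given with that value.

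The promoters of 4 members whose levels changed are shown first, 2 with and 2 without the core letters ACGTG. These letters are the core of the sites that hypoxia-inducible factors are known to bind, and many glycolytic genes are known targets of those factors. Each sequence is 300 bases from RefSeq (GRCm38.p6), 250 before and 50 after the annotated start, 5′ to 3′ on the gene's strand. Capitals mark ACGTG or its reverse complement CACGT, and the 2 overlap where the letters read CACGTG. Hk2, the inducible hexokinase, lies on the minus strand at chr6:82774405-82774704, with matches at -226 and -52 from the start. Ldha, the muscle-type lactate dehydrogenase subunit, is given by the first of its promoters on the plus strand, chr7:46845554-46845853. Bpgm, which makes 2,3-bisphosphoglycerate and is best known from red blood cells, has its promoter at chr6:34476106-34476405 on the plus strand. Ldhb, the heart-type lactate dehydrogenase subunit, has its own at chr6:142507908-142508207 on the minus strand.
Hk2: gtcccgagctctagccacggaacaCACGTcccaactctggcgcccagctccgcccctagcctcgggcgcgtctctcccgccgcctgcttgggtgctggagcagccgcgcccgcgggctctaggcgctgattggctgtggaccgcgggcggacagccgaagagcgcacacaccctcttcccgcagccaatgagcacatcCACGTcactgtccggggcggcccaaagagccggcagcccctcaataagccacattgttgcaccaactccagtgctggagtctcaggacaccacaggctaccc
Ldha: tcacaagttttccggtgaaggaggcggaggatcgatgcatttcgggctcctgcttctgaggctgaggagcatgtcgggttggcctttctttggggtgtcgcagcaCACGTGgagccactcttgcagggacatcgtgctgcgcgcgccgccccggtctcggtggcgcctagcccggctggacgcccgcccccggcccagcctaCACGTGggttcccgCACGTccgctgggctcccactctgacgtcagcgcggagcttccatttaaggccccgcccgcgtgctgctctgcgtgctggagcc
Bpgm: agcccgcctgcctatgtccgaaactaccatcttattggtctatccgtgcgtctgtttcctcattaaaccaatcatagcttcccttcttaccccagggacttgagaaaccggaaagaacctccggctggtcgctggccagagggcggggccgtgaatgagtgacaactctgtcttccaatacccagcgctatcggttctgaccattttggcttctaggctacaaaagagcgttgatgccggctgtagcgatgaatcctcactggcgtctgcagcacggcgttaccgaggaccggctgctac
Ldhb: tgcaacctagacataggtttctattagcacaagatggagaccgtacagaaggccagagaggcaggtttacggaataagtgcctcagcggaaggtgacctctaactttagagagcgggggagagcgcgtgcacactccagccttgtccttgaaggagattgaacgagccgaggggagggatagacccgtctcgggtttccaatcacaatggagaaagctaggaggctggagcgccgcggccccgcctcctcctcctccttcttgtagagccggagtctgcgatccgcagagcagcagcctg

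Promoters were found for 31 of the 32 members, 50 in all, and 21 of these (42%) held the letters on either strand. Of all 32851 promoters of this length, 6447 (19.6%) held them. The members' promoters had a median GC content of 58.3% against 52.7% for all promoters, and the part of base composition in the share was not tested. Of all 27025 genes, 5886 (21.8%) held a match in any promoter, and 17 of the 31 members did. Besides Hk2 and Ldha, whose other promoter held none, they were Slc2a1, Hk1, Pfkm, Pfkfb2, Pfkfb3, Aldoa, Aldoc, Gapdh, Pgk1, Pgam1, Pkm, Slc16a1, Slc16a3, Pdk2 and Pdk3. Among the others, no promoter of Tpi1, Pfkl, Eno2, Eno3, Bpgm, Ldhb or Pdk1 held one. A match is a run of letters and no evidence of binding.

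Most members differed little with loss of Foxl2, and mostly upwards. In the mean of the 5 Foxl2-loss differences (E13, E16, P0, and at P0 within the Wnt4-null and KitWvWv ovaries), 27 of 29 members were above 0, against 49.7% of all genes. Their median was 0.14, beside a median of -0.001 over all genes. Pfkm (-0.07) and Bpgm (-0.14) were the 2 below 0. Of the 29, 3 rose and 0 fell, Hk2, Ldha and Gapdh, where 1.17% of all genes rose and 1.88% fell. The unadjusted p was under 0.05 for 12 members and for 15.5% of all genes. Ldha and Gapdh were called in none of the 5 pairs alone. Adding the replicate number as a block, which at E13 marked samples that varied together, left 1 call, Hk2. Leaving out the first P0 wild-type array gave 5 calls. Leaving out the second or the third P0 wild-type array left 1. So did leaving out the second E13 control, the third E16 Foxl2-/-, the second P0 Foxl2-/- or the third double-null array.

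Within single pairs few members passed the test. At E13, 0 of 29 members were called (1.4% of all genes were), and 4 had an unadjusted p under 0.05 where 15.7% of all genes did. The median was 0.20, with 21 members above 0, against 0.05 over all genes. At E16, 0 were called (background 0.66%) and 8 had an unadjusted p under 0.05 (7.32% of all genes), with a median of 0.21 and 23 above 0 against -0.03 over all genes. At P0 1 was called, Hk2 (background 0.825%), and the median was 0.14 with 19 above 0, against -0.03 over all genes. That median was 0.24 without the first P0 wild-type array, 0.05 without the second and 0.04 without the second Foxl2-/- array. Within the KitWvWv ovaries 0 were called (background 1.14%), 8 had an unadjusted p under 0.05 (11.2% of all genes), and the median was 0.27 with 25 above 0. Within the Wnt4-null ovaries 0 were called (background 0.924%), 3 had an unadjusted p under 0.05 (10.6% of all genes), and the median was -0.02 with 13 above 0. That pair was the one of the 5 in which the members did not lie mostly above 0. The difference between pairs was tested gene by gene. Of the 29 members, 0 were called for the Wnt4-null against the wild-type background (background 0.379%), with 1 at an unadjusted p under 0.05 (8.04% of all genes). For the KitWvWv background 0 were called (background 0.022%), with 3 at an unadjusted p under 0.05 (6.2% of all genes). For P0 against E13 0 were called (background 0.324%), also with 3 (11.2% of all genes).

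At E13, 8 members had every Foxl2-/- array above every control array, where 4.99% of all genes were higher without overlap. They were Pfkl, Aldoa, Tpi1, Gapdh, Pgk1, Ldha, Ldhb and Slc16a3. At E16 there were again 8, all higher (7.52% of all genes): Hk1, Hk2, Pfkl, Pgk1, Pgam1, Ldha, Slc16a3 and Pdk1. Within the KitWvWv ovaries 7 were higher (4.51% of all genes) and 1, Bpgm, was lower (6.58%). At P0 there were 2 higher (5.37% of all genes) and 2 lower (7.18%). Within the Wnt4-null ovaries there were 2 higher (10.4%) and 2 lower (7.47%).

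Markers of other cells differed as well in some of these pairs. The summed signal of 16 red blood cell genes was 2.33 to 9.39 in E16 wild-type and 9.87 to 42.6 in Foxl2-/- ovaries, and 5 of the 16 rose with a list median of 1.79. At E13 that sum was 29.3 to 37.2 in controls and 37.8 to 41 in Foxl2-/- ovaries. In the mean of the 5 differences all 16 lay above 0, with 1 called and a median of 0.28. The sum of 18 striated muscle genes was 6.71 to 7.01 in wild-type and 7.55 to 8.73 in Foxl2-/- ovaries at E16. At P0 it was 4.88 to 5.58 against 6.88 to 7.4, so neither pair overlapped. At E13 one Foxl2-/- array had a muscle sum of 30.3, against 6.28 and 7.99 in the other 2 and 7.09 to 9.11 in controls. The red blood cell sums of P0 overlapped, at 1.72 to 3.26 in wild-type and 1.79 to 3.13 in Foxl2-/- ovaries. Within the KitWvWv and the Wnt4-null ovaries the groups overlapped in both sums.

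In the mean of the 5 differences, 8 of 17 Sertoli cell genes rose and 1 fell, with a list median of 0.56. Dhh (1.36), Dmrt1 (1.47) and Sox9 (0.83) were among those that rose. Of 16 oocyte genes 2 fell, Oosp1 (-1.16) and Dppa3 (-1.19), with a median of -0.56, and 15 of the 16 lay below 0. Of 16 meiotic germ cell genes 3 fell, Mael (-0.997), Sycp3 (-0.67) and Syce1 (-0.87), with a median of -0.60. The part of these cells in the members' differences was not tested.

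Of the 2 measured members of the hexose phosphorylation step, Hk2 was called and Hk1 was not. Hk2 read 1.86, 2.25 and 1.93 in the 3 E16 wild-type arrays and 3.96, 3.48 and 3.61 in Foxl2-/- arrays. The heterozygous ovaries of that age read 2.90, 2.45 and 2.91. At P0 it read 1.53, 1.18 and 0.964 in wild-type and 2.30, 3.49 and 2.02 in Foxl2-/- ovaries. The groups did not overlap at either age. The heterozygotes lay between the other 2 groups without reaching either, but their difference from wild-type was not called (0.45, adjusted p = 0.89). The change in Foxl2-/- ovaries was 1.07 ± 0.22 at P0, a 2.1-fold rise (adjusted p = 0.00736), and 0.87 ± 0.22 at E16 (adjusted p = 0.0688). The P0 call was lost without the third P0 wild-type or the second Foxl2-/- array.

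In the Wnt4-null background Hk2 read 2.79, 2.45 and 3.34 with a Foxl2 allele and 5.05, 5.33 and 4.03 without one, again with no overlap (0.75, adjusted p = 0.126). At E13 the groups overlapped, at 3.11, 2.86 and 2.49 in controls and 2.96, 3.30 and 2.68 in Foxl2-/-. They overlapped in the KitWvWv background too, at 2.86, 2.13 and 2.17 against 3.07, 3.44 and 1.62. Over the 5 pairs Hk2 rose by 0.58 ± 0.10, a 1.49-fold difference (adjusted p = 0.000283). This call held in all 13 other settings tried and without each of the 30 arrays in turn. Hk1, the hexokinase of most cells, did not pass the test in the mean (0.29, adjusted p = 0.115). At E16 it read 0.604, 0.596 and 0.67 in wild-type and 1.05, 0.995 and 1.11 in Foxl2-/- ovaries, without overlap (0.74, adjusted p = 0.183). A second Hk1 probe set was called in the mean (0.55, adjusted p = 0.021).

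Of the 4 members of lactate formation and export, Ldha alone was called. Ldha, whose subunit favours lactate, read 8.70, 7.70 and 8.26 in E16 wild-type and 10.9, 10.5 and 13.4 in Foxl2-/- arrays. At E13 it read 11.9, 9.64 and 10.9 in controls against 12.3, 13 and 12.9. In KitWvWv ovaries it read 6.82, 7.76 and 7.57, and 12.7, 10.5 and 8.2 with Foxl2 lost as well. Groups did not overlap in these 3 pairs. They did at P0, where the wild-type arrays read 14.7, 6.45 and 7.14 and the Foxl2-/- arrays 10.3, 15.3 and 10.6. In the Wnt4-null background the pair also overlapped, at 12.0, 12.6 and 14.7 against 13.7, 12.3 and 15.1. The mean difference was 0.34 ± 0.09, 1.27-fold (adjusted p = 0.0271), and without the first P0 wild-type array it was 0.42 (adjusted p = 0.000439). The call was lost with the replicate block (adjusted p = 0.0502) and over E13, E16 and P0 alone (adjusted p = 0.0745), 2 of 13 other settings, and without 6 of 30 arrays taken in turn. Ldhb did not differ beyond its small error, with 0.03 in the mean.

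Gapdh, the enzyme of the first oxidation step, differed least of the called members and had one of the smallest residual spreads (0.121). It read 18.5, 16.6 and 18.6 in E13 controls against 19.0, 21.7 and 20.9 in Foxl2-/- ovaries. In E16 ovaries it read 13.5, 11.6 and 13.8 against 14.6, 13.6 and 16.1. At P0 the wild-type arrays read 19.2, 13.3 and 15.0 and the Foxl2-/- arrays 16.4, 19.3 and 15.9, so that the groups overlapped at E16 and P0. The mean difference was 0.17 ± 0.05, 1.12-fold (adjusted p = 0.0382). The call was lost in 6 of 13 other settings and without 15 of 30 arrays taken in turn. The other 2 Gapdh control probe sets, nearer the middle and the 5′ end of the transcript, were not called (0.18, adjusted p = 0.18, and 0.08, adjusted p = 0.702). The ratio of the 3′ to the 5′ set, a measure of RNA and amplification quality, ran from 3.60 to 5.04 in P0 wild-type and from 4.52 to 6.16 in P0 Foxl2-/- ovaries.

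**Figure D1:**
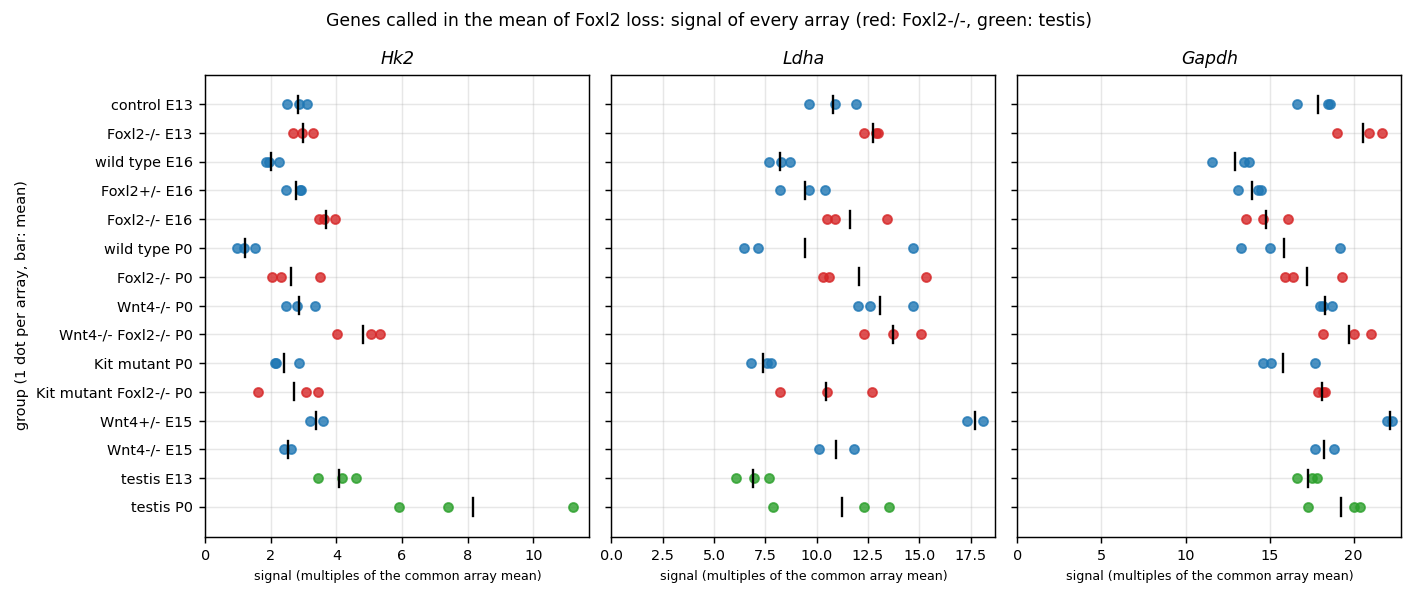
Signal of Hk2, Ldha and Gapdh (horizontal axes, multiples of the common array mean, from 0) in each of the 15 groups, with 1 dot per array and a bar at the group mean; Foxl2-/- ovaries are red, testes green and other ovaries blue. Hk2 dots of Foxl2-/- ovaries lie to the right of their controls at E16, at P0 and in the Wnt4-null background, the Ldha and Gapdh dots are shifted less, and P0 testes reach 5.90 to 11.2 for Hk2.

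Of the other steps, Pgk1 (0.33, adjusted p = 0.0812) and Pfkl (0.34, adjusted p = 0.0866) came nearest to the threshold. Pgk1 makes the first ATP of the route and Pfkl is the liver-type phosphofructokinase. At E16 Pfkl read 1.2, 1.09 and 1.32 in wild-type and 1.9, 1.56 and 2.01 in Foxl2-/- ovaries, without overlap. Of the 29 members, 7 were above 0 in each of the 5 pairs: Hk1, Hk2, Gapdh, Pgk1, Pgam1, Eno3 and Ldha. The share of all genes above 0 in each pair was not counted, so this number has no background. Phosphoglycerate mutase 1 (Pgam1) and muscle enolase (Eno3) differed by 0.12 and 0.19 in the mean. The glucose transporters Slc2a1 (0.11) and Slc2a3 (0.24) and the lactate transporters Slc16a1 (0.05) and Slc16a3 (0.10) were not called. Nor were the 4 pyruvate dehydrogenase kinases, at 0.07 for Pdk1, 0.17 for Pdk2, 0.02 for Pdk3 and 0.34 for Pdk4.

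In heterozygous ovaries at E16, none of the 29 members was called (0 by limma) where 0.0055% of all genes were, and 4 had an unadjusted p under 0.05 (5.61% of all genes). The median was 0.10 with 19 above 0, against 45.8% of all genes above 0. The heterozygous and Foxl2-/- comparisons share the E16 wild-type arrays, and the heterozygous arrays spanned 3.65 to 42.9 in the red blood cell sum. Their Gapdh 3′ to 5′ ratio was 4.87 to 5.84, above the 3.74 to 4.67 of the wild-type arrays, and its part in these values was not tested.

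**Figure D2:**
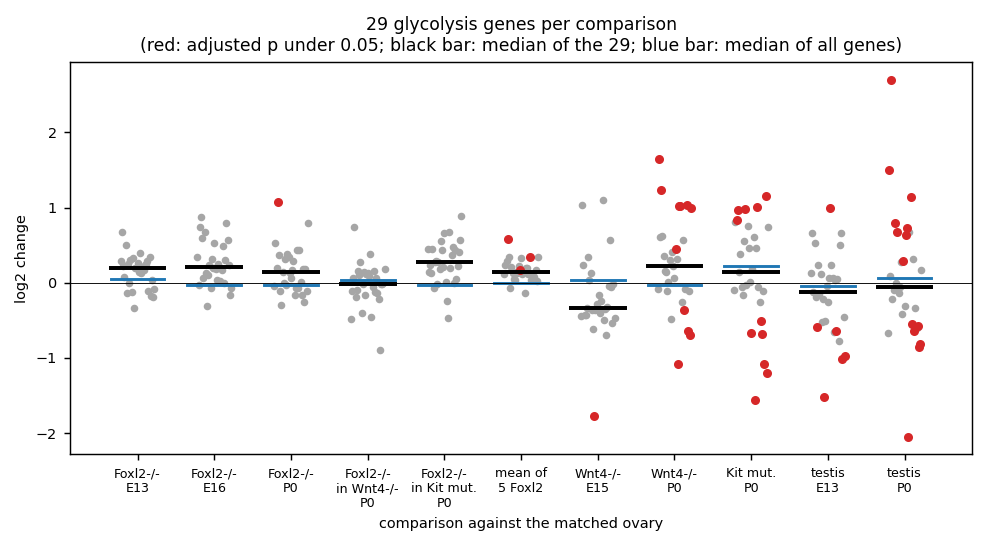
Log2 change of each of the 29 measured members against the matched ovary (vertical axis), 1 dot per gene, in 11 comparisons; red dots had an adjusted p under 0.05, black bars are the members' medians and blue bars the medians of all genes. The black bar lies above the blue one in 4 of the 5 Foxl2-loss pairs and below it for Wnt4-null ovaries at E15 (-0.33), while Wnt4-null ovaries at P0, KitWvWv ovaries and P0 testes have red dots on both sides of 0.

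Neighbouring pathways were read from lists chosen in the same way. In the mean of the 5 Foxl2-loss differences, 0 of 15 citric acid cycle genes, 0 of 10 pentose phosphate genes, 0 of 7 gluconeogenesis genes, 0 of 12 glycogen genes and 0 of 10 pyruvate dehydrogenase complex genes were called. At an unadjusted p under 0.05 the counts were 2, 3, 0, 2 and 1. Of 32 subunits of oxidative phosphorylation 1 rose, Atp5c1 of the ATP synthase (0.17), and the median was 0.02. Of 19 hypoxia-responsive genes outside glycolysis 1 rose, Ndrg1 (0.64, adjusted p = 2.9e-05), a stress-responsive gene, and the median was 0.00. Other isoforms of the glycolytic steps had 0 of 9 called, 1 at an unadjusted p under 0.05.

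Loss of Wnt4 gave different pictures at E15 and at P0. At E15, 22 of 29 members were lower in Wnt4-null than in Wnt4+/- ovaries, with a median of -0.33 against 0.04 over all genes. Of these 1 fell, Aldoc, and 0 rose, where 0.594% of all genes fell and 1.5% rose. The unadjusted p was under 0.05 for 9 members and for 12.6% of all genes. With 2 arrays in each group, 16 members were lower without overlap, where 19.7% of all genes were, and 4 were higher without overlap, where 24.7% of all genes were. The 16 ran through the route, from Hk2, Pfkl, Pfkm and Pfkfb4 over Aldoa, Aldoc, Tpi1, Gapdh, Pgk1, Pgam2 and Bpgm to Eno3, Pkm, Ldha, Ldhb and Pdk2. The 4 higher ones were Slc2a3, Pfkp, Eno2 and Slc16a3.

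Aldoc, the brain-type aldolase, read 0.933 and 0.707 in E15 controls and 0.17 and 0.314 in Wnt4-null ovaries. It fell by 1.77 on the log2 scale (SE 0.35), to 0.294-fold (adjusted p = 0.00374). The call was lost without the first control or the first Wnt4-null array, where the remaining array is assumed to vary like the other groups. A second, dimmer Aldoc set gave -0.22 (adjusted p = 0.923). Aldoa, the general aldolase, read 13.5 and 14.9 against 8.76 and 9.77 (-0.61, adjusted p = 0.0754). Another Aldoa probe set was called (-0.75, adjusted p = 0.0381). Ldha read 17.3 and 18.1 in controls, above all other arrays of the series, and 10.1 and 11.8 in Wnt4-null ovaries (-0.70, adjusted p = 0.152). Hk2 read 3.59 and 3.18 against 2.41 and 2.62 (-0.43, adjusted p = 0.559).

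Marker sums of other cell types varied between these 4 arrays, with overlap between the groups for red blood cell and neural genes. The red blood cell sum was 18.4 to 40 in controls and 5.52 to 18.6 in Wnt4-null ovaries. The sum of 13 neural genes was 0.843 to 1.31 against 0.96 to 4.73, and that of striated muscle 7.35 to 7.67 against 8.15 to 12.7. Their part in the members' differences was not tested. Of the related lists, citric acid cycle and oxidative phosphorylation genes had 0 called each (1 and 7 at an unadjusted p under 0.05) and medians of -0.10 and -0.15.

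At P0 the members went both ways in Wnt4-null ovaries. These ovaries also carried Foxl2+/-, so the Wnt4 and Foxl2 genotypes cannot be told apart here. Compared with wild-type ovaries, 7 of 29 members rose and 4 fell, where 7.07% of all genes rose and 9.87% fell. The median was 0.22 with 19 above 0, against -0.03 over all genes. Slc2a3, the neuronal-type glucose transporter, read 0.235, 0.15 and 0.263 in wild-type and 0.537, 0.682 and 0.851 in Wnt4-null ovaries. It rose by 1.64 ± 0.33, 3.12-fold (adjusted p = 0.000455). Hk2 rose by 1.23 ± 0.22 (adjusted p = 0.000112), from 1.53, 1.18 and 0.964 to 2.79, 2.45 and 3.34. Neither pair of groups overlapped.

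Both minor enolases rose as well. Eno3 read 0.204, 0.177 and 0.154 in wild-type and 0.402, 0.345 and 0.365 in Wnt4-null ovaries (1.02 ± 0.21, adjusted p = 0.000573). Eno2, the neuronal enolase, read 0.344, 0.216 and 0.295 against 0.507, 0.598 and 0.645 (1.02 ± 0.34, adjusted p = 0.0374). Slc16a3, the lactate exporter of glycolytic cells, rose from 0.707, 0.495 and 0.481 to 1.03, 1.07 and 1.37 (1.04 ± 0.29, adjusted p = 0.0142). Pgam1 (0.44, adjusted p = 0.0135) and Pdk4 (0.997, adjusted p = 0.016), a kinase known to respond to fasting, completed the 7.

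The 4 that fell were Bpgm, Ldhb, Pdk1 and Pdk3. Bpgm read 11.7, 12.9 and 11.2 in P0 wild-type and 5.38, 6.26 and 5.29 in Wnt4-null ovaries, and fell by 1.08 ± 0.18 (adjusted p = 3.4e-05). Ldhb read 21.3, 23.7 and 22.6 against 18.2, 17.9 and 16.6 (-0.36 ± 0.09, adjusted p = 0.00365). Pdk1 read 1.93, 2.22 and 1.97 against 1.2, 1.38 and 1.33 (-0.64, adjusted p = 0.0343). Pdk3 read 1.18, 1.44 and 1.44 against 0.682, 0.92 and 0.901 (-0.70, adjusted p = 0.0153). In none of the 4 did the groups overlap.

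Oocyte genes moved in the same arrays. The sum of 16 oocyte genes was 55.7 to 127 in P0 wild-type and 12.1 to 25.8 in Wnt4-null ovaries, and 14 of the 16 fell. Sertoli cell genes summed to 10.5 to 13 in wild-type and 22.7 to 24.9 in Wnt4-null ovaries. Striated muscle genes summed to 4.88 to 5.58 against 8 to 8.27, and 4 of 18 rose. The part of these cells in the differences, that of Eno3 included, was not tested. Calls at P0 depended on the wild-type arrays, with 16 members called without the first, 5 without the second and 6 without the third. Without the third Wnt4-null array there were 7.

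The change of the Wnt4 effect between stages was tested directly. It passed for 4 of 29 members, all towards higher at P0, where 1.91% of all genes passed in either direction. The difference was 1.66 ± 0.35 for Hk2 (adjusted p = 0.00899), 1.52 ± 0.33 for Eno3 (adjusted p = 0.0112), 1.27 ± 0.31 for Ldha (adjusted p = 0.0308) and 0.92 ± 0.23 for Aldoa (adjusted p = 0.0379). The stages also differ in strain, in the Wnt4+/- controls used at E15 and in the Foxl2+/- allele of the P0 Wnt4-null ovaries, which cannot be told apart from age. Leaving out single arrays gave 0 to 7 calls, with 0 without the first E15 control and 7 without the first P0 wild-type array. There was 1 without the second E15 Wnt4-null array. There were 2 without the second or the third P0 wild-type, the second E15 control, the first E15 Wnt4-null, or the first or the third P0 Wnt4-null array.

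**Figure D3:**
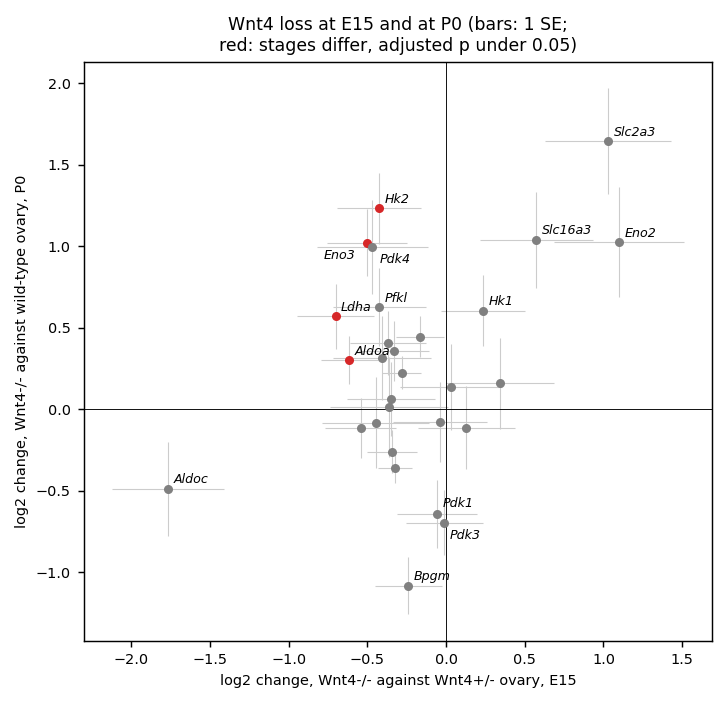
Log2 change of each measured member without Wnt4 at E15 (horizontal axis) and at P0 (vertical axis), with bars of 1 SE. Hk2, Aldoa, Eno3 and Ldha (red), for which the stages differed by the test, lie left of 0 at E15 and above 0 at P0, while Slc2a3, Eno2 and Slc16a3 lie above 0 on both axes.

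In the mean of both Wnt4-loss differences, 3 members rose and 3 fell, where 6.91% of all genes rose and 6.36% fell. The P0 part of this mean includes the Foxl2+/- genotype of the Wnt4-null ovaries. Slc2a3 (1.34, adjusted p = 0.000446), Eno2 (1.06, adjusted p = 0.00636) and Slc16a3 (0.81, adjusted p = 0.0197) rose. Aldoc (-1.13, adjusted p = 0.000816), Bpgm (-0.66, adjusted p = 0.00119) and Ldhb (-0.34, adjusted p = 0.000714) fell. The brightest Hk1 set was not called in this mean (0.42, adjusted p = 0.122) or at P0 (0.60, adjusted p = 0.062). A second Hk1 set was called in both (0.94, adjusted p = 0.00919, and 1.26, adjusted p = 0.00436). The median was -0.03 with 14 of 29 members above 0, so a shared fall without Wnt4 was not seen over both ages. Ldha stood at -0.70 at E15 and 0.57 at P0, and Gapdh at -0.28 and 0.22, none of them called alone.

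Foxl2-/- and Wnt4-null ovaries of P0 were also compared with each other, without the wild-type arrays. Of 29 members 3 were higher in Foxl2-/- and 2 lower, where 8% of all genes were higher and 7.58% lower. Bpgm (0.91, adjusted p = 0.00032), Ldhb (0.37, adjusted p = 0.00317) and Aldoc (0.87, adjusted p = 0.0434) were higher. Aldoc read 0.473, 0.945 and 0.563 in Foxl2-/- and 0.351, 0.353 and 0.322 in Wnt4-null ovaries. Slc2a3 (-1.11, adjusted p = 0.0188) and Eno2 (-1.09, adjusted p = 0.0264) were lower. Eno2 read 0.237, 0.271 and 0.296 in Foxl2-/- ovaries and 0.507, 0.598 and 0.645 in Wnt4-null ones. The oocyte sum was 48.8 to 65.9 in Foxl2-/- against 12.1 to 25.8, and 9 of 16 oocyte genes were higher in Foxl2-/-. There were 3 calls without the third Foxl2-/- array and 2 without the second or the third Wnt4-null array.

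The KitWvWv ovaries, in which oocyte genes summed to 4.02 to 31.9, had 5 members higher and 6 lower than wild-type ovaries, where 17.3% of all genes rose and 13.3% fell. They also carried Foxl2+/-, so the Kit and Foxl2 genotypes cannot be told apart here. The median was 0.15 against 0.23 over all genes. Hk2 (0.97, adjusted p = 0.00114), Hk1 (0.84, adjusted p = 0.00403), Eno3 (1.01, adjusted p = 0.00037), Pfkfb4 (0.99, adjusted p = 0.0158) and Pdk2 (1.15, adjusted p = 1.27e-05) rose. Pdk2, the widely expressed kinase, read 1.8, 1.06 and 1.65 in wild-type and 3.68, 3.0 and 3.15 in KitWvWv ovaries. Bpgm fell by 1.56 (adjusted p = 2.94e-08), with 3.81, 3.86 and 4.43 in the KitWvWv arrays. Pdk3 (-1.2, adjusted p = 2.39e-05), Pdk1 (-1.08, adjusted p = 0.000183), Ldhb (-0.51, adjusted p = 4.1e-05), Slc16a1 (-0.68, adjusted p = 0.0381) and Pgk1 (-0.66, adjusted p = 0.0292) fell too. Without the first P0 wild-type array there were 13 calls, and Pgk1 (adjusted p = 0.119) and Slc16a1 (adjusted p = 0.141) were not among them. The other 2 Pgk1 probe sets gave -0.04 (adjusted p = 0.902) and -0.09 (adjusted p = 0.79). A second Hk1 set was not called (0.31, adjusted p = 0.475). Nor were the other Pdk1 sets, at -0.30 (adjusted p = 0.367), -0.70 (adjusted p = 0.259) and -0.14 (adjusted p = 0.813). The Foxl2, Wnt4, Kit and testis comparisons at P0 share the same 3 wild-type ovary arrays, so their values are not independent of each other. Bpgm differed by -0.17 in Foxl2-/-, -1.08 in Wnt4-null, -1.56 in KitWvWv ovaries and -2.04 in testes.

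Testes differed from ovaries partly in different members at the 2 ages, with Pgam2 higher and Pdk2 lower at both. At E13, 1 of 29 members was higher and 5 were lower in testes, where 3.3% of all genes were higher and 4.84% lower. Pgam2, the muscle-type mutase, was higher (0.99, adjusted p = 0.0112), at 0.33, 0.337 and 0.297 against 0.176, 0.136 and 0.158. Aldoc was lower (-1.52, adjusted p = 0.000406), at 0.426, 0.146 and 0.258 in testes and 0.664, 0.651 and 0.964 in ovaries, while its second probe set gave -0.10 (adjusted p = 0.953). Ldha was lower as well, at 6.95, 6.07 and 7.70 against 11.9, 9.64 and 10.9 (-0.65, adjusted p = 0.042). Pdk2 (-1.01, adjusted p = 0.000232), Pdk4 (-0.98, adjusted p = 0.0311) and the muscle-type phosphofructokinase Pfkm (-0.58, adjusted p = 0.0471) completed the 5. There were 3 calls without any one testis array or without the second ovary array.

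At P0, 8 members were higher and 6 lower in testes, where 12.2% of all genes were higher and 16.7% lower. Leaving out single arrays gave 10 to 11 calls. Per the methods these testes were Wnt4-null, while the ovaries were wild-type, so sex and Wnt4 genotype cannot be told apart here. Hk2 read 11.2, 5.90 and 7.39 in testes against 1.53, 1.18 and 0.964 in ovaries, a 6.5-fold difference (2.70 ± 0.22, adjusted p = 1.5e-11). Slc2a3 (1.5, adjusted p = 0.000684), Eno3 (1.14, adjusted p = 6.99e-05) and Pgam1 (0.64, adjusted p = 0.000192) were higher too. So were Pfkp (0.79, adjusted p = 0.0345), Pfkfb3 (0.67, adjusted p = 0.0471), Pgam2 (0.72, adjusted p = 0.0334) and Gapdh (0.29, adjusted p = 0.0302). The middle and 5′ Gapdh sets differed by 0.01 and -0.03, so the Gapdh difference was in the 3′ set alone. Bpgm was lower, at 2.59, 3.19 and 2.89 in testes (-2.04 ± 0.18, 0.242-fold, adjusted p = 4.72e-11). Ldhb (-0.64, adjusted p = 6.67e-07), Pkm, the pyruvate kinase of most tissues (-0.55, adjusted p = 0.0018), Pdk2 (-0.85, adjusted p = 0.000603), Pdk3 (-0.81, adjusted p = 0.00233) and Pdk1 (-0.58, adjusted p = 0.0369) were lower as well. In these testes the oocyte sum was 4.24 to 4.92 and the Sertoli cell sum 50.2 to 78.8. Of the related lists, 9 of 15 citric acid cycle, 15 of 32 oxidative phosphorylation and 7 of 10 pentose phosphate genes were lower.

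**Figure D4:**
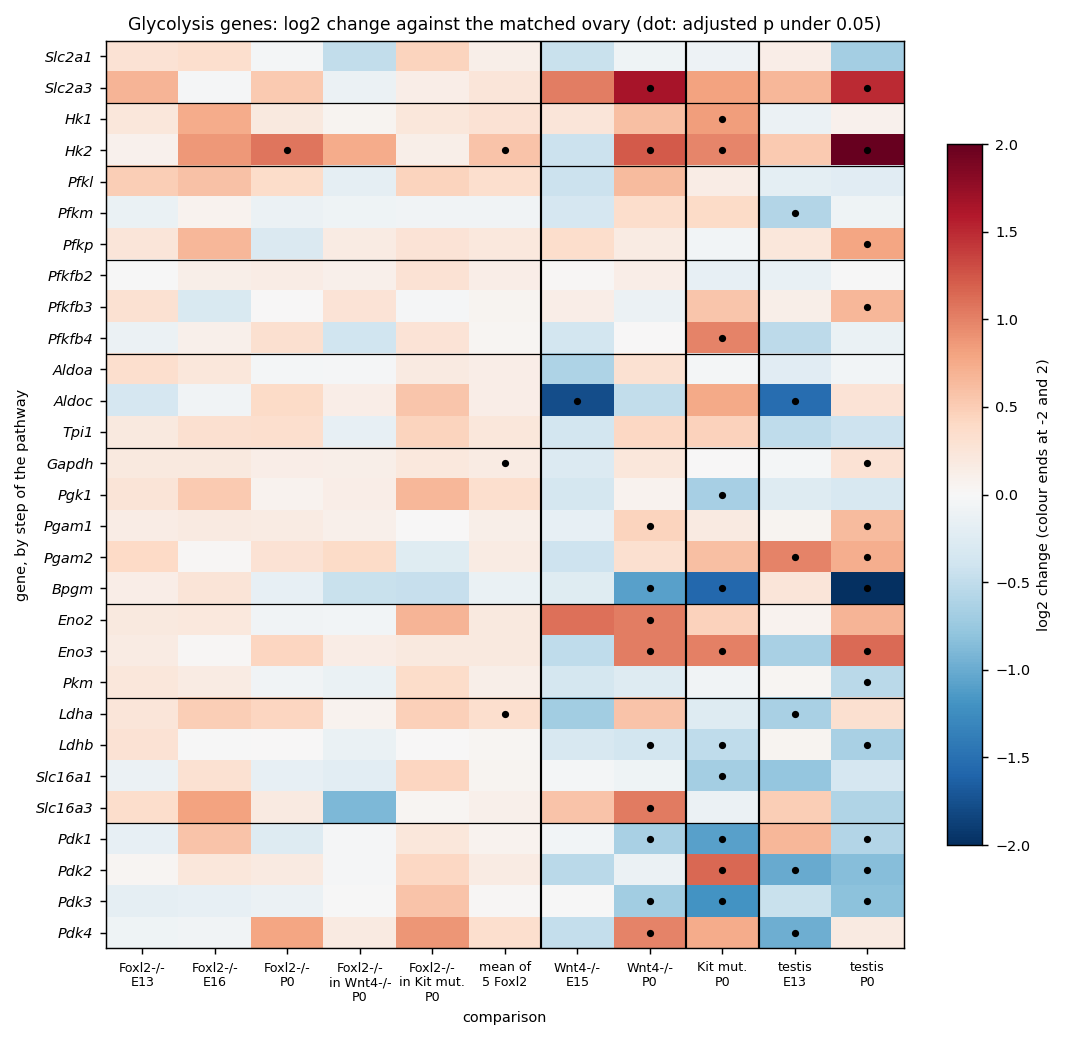
Colour scale of the log2 change of each measured member (rows, in pathway order, lines between steps) against the matched ovary in 11 comparisons (columns), with a dot where the adjusted p was under 0.05. The Foxl2 columns are mostly pale red, the E15 Wnt4 column mostly pale blue with Aldoc darkest, and Hk2 and Bpgm in P0 testes pass the ends of the scale at 2.70 and -2.04.

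In control ovaries members changed with age. From E13 to E16, 4 members fell and 0 rose, where 3.94% of all genes fell and 5.09% rose. These were Gapdh (-0.46, adjusted p = 0.00295), Pkm (-0.64, adjusted p = 0.00156), Ldhb (-0.44, adjusted p = 0.00119) and Pfkp (-0.97, adjusted p = 0.0269). The median was -0.34 with 21 below 0, against 0.16 over all genes. In 15 members all E16 arrays lay below all E13 arrays, where 10.9% of all genes did, and 1, Eno2, lay above, where 21% of all genes did. The E13 ovaries were labelled Foxl2+/-. The red blood cell sum was 29.3 to 37.2 at E13 and 2.33 to 9.39 at E16.

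From E16 to P0, 6 members rose and 6 fell, where 10.2% of all genes rose and 20.7% fell. Bpgm rose 3.64-fold, from 3.73, 3.44 and 2.72 to 11.7, 12.9 and 11.2 (1.86 ± 0.18, adjusted p = 2.28e-09). Ldhb rose from 11.5, 11.5 and 11.8 to 21.3, 23.7 and 22.6 (0.96 ± 0.09, adjusted p = 1.14e-09). Pdk1 rose from 0.92, 0.707 and 0.67 to 1.93, 2.22 and 1.97 (1.41, adjusted p = 6.57e-06). A second Pdk1 probe set fell over the same interval (-1.18), the one called case in which probe sets of a called member went opposite ways. Pfkp (1.28), Pdk4 (0.80) and Gapdh (0.27) also rose. The other Pfkp sets were not called, at 0.26 (adjusted p = 0.745) and -0.23 (adjusted p = 0.701). Hk2 fell (-0.73, adjusted p = 0.0113), as did Eno3 (-0.87, adjusted p = 0.00192), Slc2a3 (-0.92), Pfkfb4 (-1.01), Tpi1 (-0.57) and Pgam1 (-0.34). In this interval 12 of 16 oocyte genes rose, from sums of 4.09 to 13.4 to sums of 55.7 to 127, and 13 of 32 oxidative phosphorylation subunits rose. Without the second or the third E16 array, or the third P0 array, 7 members were called.

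**Figure D5:**
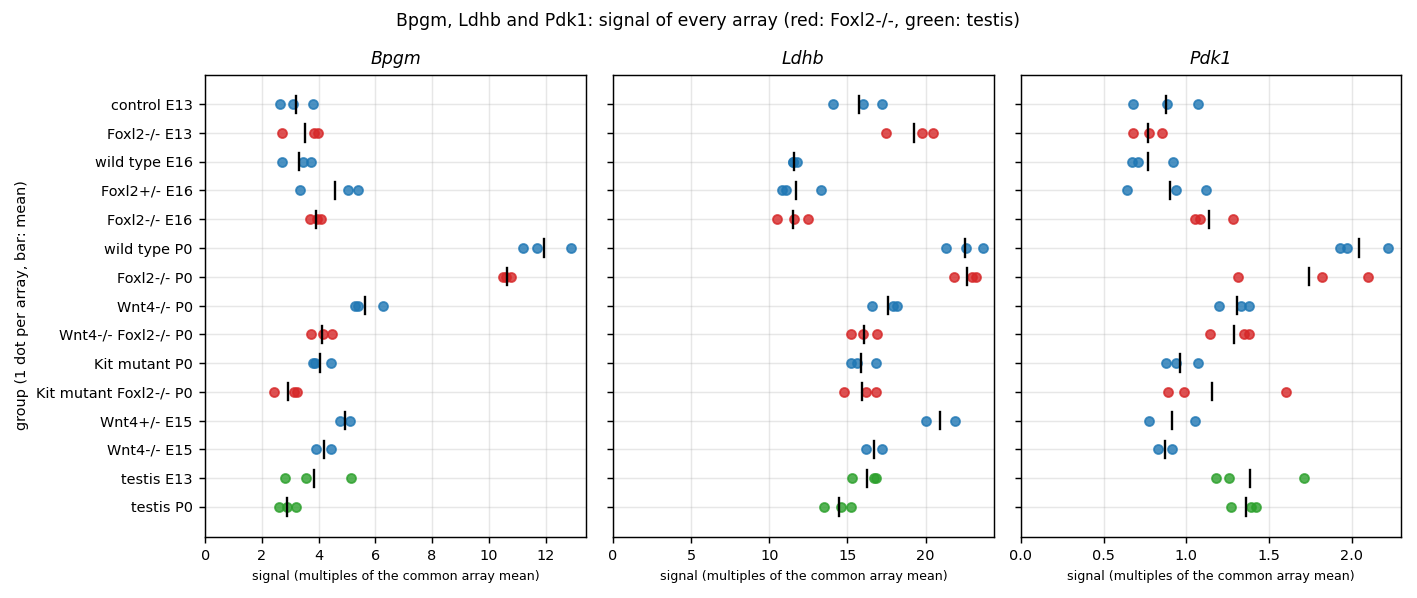
Signal of Bpgm, Ldhb and Pdk1 (horizontal axes, multiples of the common array mean, from 0) in each of the 15 groups, with 1 dot per array and a bar at the group mean; Foxl2-/- ovaries are red, testes green and other ovaries blue. Bpgm is highest in P0 wild-type and Foxl2-/- ovaries, at 10.5 to 12.9, and lies at 6.26 or less in the Wnt4-null, KitWvWv and testis arrays of that age.

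Members did not vary as one block within groups. Over the 406 pairs of members, the correlation of their deviations from the group means had a median of 0.10, from -0.493 to 0.808, across 43 arrays that share amplification and scaling. Against the median of the other members, Ldha (0.796), Tpi1 (0.769), Pfkl (0.718), Aldoa (0.689), Slc2a1 (0.683) and Gapdh (0.66) went most with the rest. Ldhb (-0.115) and Bpgm (-0.058) went least with it.

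Of the members, 16 had several probe sets of their own. In the 85 cases where a called member had another set in the same comparison, 81 had the same sign and 45 were called with it. Pfkfb3, which raises fructose 2,6-bisphosphate, and Pfkp, the platelet-type phosphofructokinase, disagreed between sets. In KitWvWv ovaries the brightest Pfkfb3 set gave 0.55 and another -1.65, and the Pfkp sets -0.06 and 1.87. A second Aldoc set was called with Foxl2 loss (0.81, adjusted p = 0.014), where the brightest one gave 0.13 (adjusted p = 0.718).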

How the data were processed

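Gonads of individual mice were profiled on 43 Affymetrix MOE430 v.2 arrays. Per the methods, RNA was extracted enzymatically and linearly amplified before labelling, scanned under GCOS 1.3 (per the labels), and summarised by the authors with plier, followed by scaling to the global mean. The deposited values are linear intensities, with no missing values. The genome build behind the array's annotation is not given in the sources used here.

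Of 45071 probe sets, 61 array controls were left out and the 3 Gapdh controls kept. Intensities were divided by the common mean and analysed as log2 of the value plus 1% of that mean. Array medians ran from 0.18 to 0.295 of that mean. The number of arrays limits the precision. A single gene symbol was given for 34930 of the 45010 probe sets, while 930 carried several and 9150 carried none, and those were not used to name genes. A gene was read from its brightest probe set with 1 symbol, and all 32 listed members were considered. Symbols were updated through RefSeq gene IDs for 34726 probe sets.

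Group means were fitted to all arrays with limma 3.58.1 in R 4.3.3 (empirical Bayes with a mean-variance trend). The p-values were two-sided and adjusted by Benjamini-Hochberg over all probe sets. The script was tested on simulated data. Alternatives covered the pseudocount, quantile normalization, a filter on low values, the arrays in the fit, the choice of probe set, the adjustment, array weights, a replicate block, the pairs averaged and leaving out each array. At E13, control and Foxl2-/- arrays with the same number in their titles varied together (r = 0.132 to 0.158 in 3 of 3 pairs). The titles alone give that pairing. The members, the related lists and the marker lists were chosen with earlier results of these data known. Scan dates and slides were not analysed here.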

Additional observations from a re-analysis of the deposited data

Results flagged for a closer look

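The effect of Wnt4 loss differed between P0 and E15 for 4 of 29 glycolysis genes by a test of the difference itself (limma, adjusted over all probe sets), which 1.91% of all genes passed. Strain, the genotype of the controls and the Foxl2+/- allele also differ between the stages and cannot be told apart from age. The count of 4 ran from 0 to 7 when single arrays were left out. The P0 minus E15 difference was 1.66 for Hk2, 1.52 for Eno3, 1.27 for Ldha and 0.92 for Aldoa, in log2 units. Hk2 went from -0.43 at E15 to 1.23 at P0, Eno3 from -0.50 to 1.02, Ldha from -0.70 to 0.57 and Aldoa from -0.61 to 0.30.

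Other genes lay in opposite directions in related comparisons, with no overlap between the arrays of the groups compared, though not all passed the test. These differences between comparisons were not tested. For the testes, the Wnt4-null genotype at P0 and the Foxl2+/- label of the E13 ovaries cannot be told apart from age. Eno3 was lower in testes than in ovaries at E13 (-0.65, limma's adjusted p = 0.0504) and higher at P0 (1.14, adjusted p = 6.99e-05), a difference of 1.79. It read 0.179, 0.236 and 0.236 in E13 testes against 0.454, 0.336 and 0.267 in ovaries, and 0.407, 0.382 and 0.417 against 0.204, 0.177 and 0.154 at P0. Striated muscle genes summed to 5.55 to 6.24 in E13 testes against 7.09 to 9.11 in ovaries. At P0 the sums overlapped, at 5.34 to 7.1 against 4.88 to 5.58. The part of muscle in the Eno3 values was not tested. Pdk1 was higher in E13 testes (0.66, adjusted p = 0.0504) and lower in P0 testes (-0.58, adjusted p = 0.0369), a difference of -1.24. Slc16a3 was higher without Foxl2 at E13 (0.34, adjusted p = 0.565) and at E16 (0.80, adjusted p = 0.466) but lower without Foxl2 in Wnt4-null ovaries at P0 (-0.89, adjusted p = 0.215), none of them called. The difference was -1.24 from E13 and -1.69 from E16. In the Wnt4-null background Slc16a3 read 1.03, 1.07 and 1.37 with a Foxl2 allele and 0.384, 0.701 and 0.851 without one.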

How the results depend on the processing

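No called gene changed sign under any alternative. Medians near 0 did so when single arrays were left out, for Foxl2 loss in Wnt4-null ovaries (-0.0761 to 0.0516), KitWvWv ovaries, the mean of both Wnt4 losses (-0.0575 to 0.0442), testes at P0 (-0.1804 to 0.0688) and P0 against E16 (-0.1986 to 0.0081). Array quality weights gave the most calls among the members: 3 for Foxl2 loss at E13, 2 at E16, 1 in Wnt4-null and 11 in KitWvWv ovaries, and 8 in the mean of 5. They gave 17 for Wnt4 loss at P0, 8 for Foxl2-/- against Wnt4-null ovaries and 7 for E16 against E13. Calls over all 18185 genes grew under these weights as well. For Foxl2 loss at E13 they went from 90 higher and 164 lower genes to 1705 and 1531. In the KitWvWv background they went from 52 and 156 to 718 and 1155, and in the mean of 5 from 212 and 342 to 868 and 1152. For Wnt4 loss at P0 they went from 1286 and 1794 to 1766 and 2536. With only the groups compared in the fit, calls were 2 for Foxl2 loss at E16, 0 at P0 and 1 in Wnt4-null ovaries, 7 in KitWvWv ovaries and 2 for the Wnt4 stage difference. Quantile normalization gave 1 at E16 and 2 for the stage difference. At E16, the filter on low values, the mean over all probe sets and the adjustment over 1 set per gene each gave 1. For Foxl2-/- against Wnt4-null ovaries each gave 8. The mean over all probe sets gave 0 calls for Wnt4 loss at E15, and medians of 0.0511 for heterozygotes and -0.2716 for E16 against E13. Averaging E13, E16 and P0 alone left 1 of the 3 calls with Foxl2 loss. The mean over 4 pairs without the Wnt4-null background was added after seeing the data and stayed within 1.5 times.

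With the replicate number as a block, the mean of 5 kept 1 call, and no other count moved by over 1.5 times. Only the E13 numbers paired the samples. In the other Foxl2 pairs same-numbered arrays correlated between -0.138 and 0.112.

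Leaving out each array in turn gave 0 to 1 calls for Foxl2 loss at E13 and in KitWvWv ovaries, 0 to 2 at P0 and 1 to 5 in the mean of 5. It gave 0 to 1 for Wnt4 loss at E15, 5 to 16 at P0 and 0 to 7 for the stage difference. It gave 2 to 6 for Foxl2-/- against Wnt4-null ovaries and 3 to 5 for testes at E13. For testes at P0 it gave 10 to 11, and for P0 against E16 7 to 11. Medians ran from 0.1194 to 0.2337 for Foxl2 loss at E13, 0.1711 to 0.2689 at E16, 0.2256 to 0.4075 in KitWvWv ovaries and 0.0466 to 0.1123 in heterozygotes. For Foxl2 loss at P0 the median ran from 0.0356 to 0.2427, and was 0.0188 with the mean over all probe sets. They ran from -0.0158 to 0.4143 for KitWvWv ovaries, -0.3954 to -0.2428 for E16 against E13, and 0.3452 to 0.6409 for the stage difference. The causes were not tested.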
